A study of Mus musculus with 78 samples.

Results

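The response of engineered mouse cartilage to 12 h of tumour necrosis factor alpha (TNF-alpha) was described from 6 mRNA libraries of the 78 libraries in the series (39 of mRNA and 39 of small RNA). The 6 were chosen by their labels: 3 libraries of cartilage given TNF-alpha at 20 ng/mL for 12 h, and 3 of untreated cartilage collected at the same time. The cartilage was tissue grown from chondrocytes that had been made from mouse induced pluripotent stem cells, and the title of the series asks how such chondrocytes answer to inflammatory cytokines. Each group carried the replicate letters a, b and c, and the values of a group are given in that order throughout. Also used were 3 libraries given interleukin-1beta (IL-1beta) at 1 ng/mL for 12 h, and the TNF-alpha and control libraries of 24 h and 72 h. From the TNF-alpha libraries of 4 h only the level of the gene Tnf is given, with no comparison to their controls. The labels name no strain, genotype, clone, age or sex, nor whether libraries of 1 group came from separate cultures. Where they did not, the spread behind each p-value is that between libraries alone.

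TNF-alpha is a cytokine of inflamed joints, released above all by macrophages and synovial cells. It binds the receptors TNFR1 and TNFR2, which gather TRAF adaptors and kinases, and the kinase complex IKK then marks the inhibitor IkappaB-alpha for destruction. NF-kappaB dimers so released enter the nucleus and switch on genes of cytokines, chemokines, adhesion proteins and proteases, together with their own inhibitors. In cartilage the cytokine is known for inducing enzymes that break down collagen and aggrecan and for lowering the synthesis of matrix.

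The sequences in front of the start sites of 7 genes are printed here as examples from the groups described below. Holding a match to a searched motif was a condition for choosing them. They come from RefSeq (GRCm38.p6), cover the 250 bases before the start and run 5′ to 3′ on the strand of the gene. Capitals mark matches to a short motif on either strand: for Cxcl1, Cxcl2 and Nfkbia the NF-kappaB motif (GGGA, 4 bases of any kind and CC, or GGG, 2 bases of any kind and TTTCC), for Gbp2 and Isg15 the interferon-stimulated response element (ISRE: GAAA, 2 bases of any kind and GAAA), for Ankrd37 a hypoxia response element (TACGTG), and for Mmp3 the AP-1 motif (TGACTCA). Overlapping matches run together.
Cxcl1: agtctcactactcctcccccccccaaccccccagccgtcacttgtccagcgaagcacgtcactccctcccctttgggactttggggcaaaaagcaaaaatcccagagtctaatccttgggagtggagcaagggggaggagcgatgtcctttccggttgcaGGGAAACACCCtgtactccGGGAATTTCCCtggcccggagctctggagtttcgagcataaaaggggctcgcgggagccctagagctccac
Cxcl2: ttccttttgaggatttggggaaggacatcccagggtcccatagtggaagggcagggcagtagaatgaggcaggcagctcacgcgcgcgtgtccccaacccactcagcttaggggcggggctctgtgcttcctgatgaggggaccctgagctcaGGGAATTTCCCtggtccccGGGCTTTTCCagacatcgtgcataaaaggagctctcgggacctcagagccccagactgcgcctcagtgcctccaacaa
Nfkbia: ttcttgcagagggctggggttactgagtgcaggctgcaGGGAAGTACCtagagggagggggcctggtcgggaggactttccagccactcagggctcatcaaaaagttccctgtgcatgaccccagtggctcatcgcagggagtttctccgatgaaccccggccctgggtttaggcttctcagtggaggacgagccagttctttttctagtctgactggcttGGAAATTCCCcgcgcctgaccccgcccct
Gbp2: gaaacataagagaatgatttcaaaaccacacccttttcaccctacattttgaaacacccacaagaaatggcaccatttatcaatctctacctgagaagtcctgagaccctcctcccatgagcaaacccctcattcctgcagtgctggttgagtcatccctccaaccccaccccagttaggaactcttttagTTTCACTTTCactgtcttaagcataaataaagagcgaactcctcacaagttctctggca
Isg15: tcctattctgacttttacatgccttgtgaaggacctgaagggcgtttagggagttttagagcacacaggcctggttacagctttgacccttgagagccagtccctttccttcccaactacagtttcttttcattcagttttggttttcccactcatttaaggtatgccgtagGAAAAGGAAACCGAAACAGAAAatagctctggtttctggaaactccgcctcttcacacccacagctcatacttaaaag
Ankrd37: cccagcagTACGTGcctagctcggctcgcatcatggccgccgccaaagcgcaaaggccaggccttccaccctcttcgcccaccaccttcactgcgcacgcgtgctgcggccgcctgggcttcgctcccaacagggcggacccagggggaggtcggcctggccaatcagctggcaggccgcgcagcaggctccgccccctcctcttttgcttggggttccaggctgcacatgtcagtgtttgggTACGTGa
Mmp3: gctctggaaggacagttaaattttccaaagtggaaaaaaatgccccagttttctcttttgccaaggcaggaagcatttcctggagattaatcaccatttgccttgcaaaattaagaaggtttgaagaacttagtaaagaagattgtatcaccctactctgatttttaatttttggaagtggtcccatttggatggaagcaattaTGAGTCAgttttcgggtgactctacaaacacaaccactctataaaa
Cxcl1 and Cxcl2 are the neighbouring genes of neutrophil chemokines, at chr5:90890995-90891244 and chr5:90903649-90903898 on the plus strand. Nfkbia, the gene of IkappaB-alpha, has its window at chr12:55492648-55492897 on the minus strand. The windows of Gbp2 and Isg15, both interferon-inducible genes, lie at chr3:142620413-142620662 (plus strand) and chr4:156200819-156201068 (minus strand). Ankrd37, a target of hypoxia-inducible factor (HIF), has its window at chr8:45999851-46000100 on the minus strand, and Mmp3, the gene of the protease stromelysin-1, at chr9:7445572-7445821 on the plus strand. A match is a description of letters and not evidence of a bound site.

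Of the 18857 genes tested, 11850 had a promoter in the RefSeq table, and the NF-kappaB motif was found in 22.8% of these windows, the ISRE in 2.53%, the hypoxia element in 2.94% and the AP-1 motif in 3.34%. Among the 185 genes with a promoter that were called and at least 4-fold higher with TNF-alpha, the shares were 30.3% for NF-kappaB, 14.6% for the ISRE and 13.0% for AP-1. Of the 40 with a promoter that were at least 4-fold lower, 13 (32.5%) held the NF-kappaB motif, a share as high as among the raised genes, 4 the hypoxia element, 2 the AP-1 motif and 1 the ISRE. By gene group, the NF-kappaB motif was in 6 of the 9 CXC chemokine promoters and in 8 of the 9 promoters of the MHC class I chains, but in 0 of 8 for MHC class I peptide processing and in 1 of 10 for the list of other NF-kappaB targets. The ISRE was in all 9 promoters of interferon-inducible GTPases found in the table, and in 8 of 20 of the antiviral effectors. The hypoxia element stood in 5 of 19 promoters of HIF targets outside glycolysis and in 1 of 21 for glucose transport and glycolysis, and AP-1 in 3 of 11 of the matrix metalloproteinases.

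The 6 libraries held between 15380655 and 21292715 counts. Levels are given as CPM (counts scaled to library size with TMM factors), fold changes as log2 of TNF-alpha over control with the standard error of the fit (SE), and a gene was called at an adjusted p under 0.05. The mRNA of cartilage was abundant in the controls: Col2a1, the main collagen of cartilage, stood at 82489, 83652 and 100251 CPM, and Acan, the proteoglycan aggrecan, at 7515, 7575 and 8192 CPM. Of 8 markers of pluripotent cells, Pou5f1, Zfp42, Dppa5a and Tdgf1 had no count in any of the 6 libraries. The 8 summed to 2.23 to 3.2 CPM in the controls and 2.21 to 2.63 CPM with TNF-alpha, and the 1 tested was not called. Of 8 lymphocyte markers only the T cell marker Cd3d had no count. Those 8 summed to 0.669 to 1.21 CPM in the controls and 0.405 to 0.918 CPM with TNF-alpha, and neither of the 2 tested was called. Of 12 macrophage markers, Ptprc, Itgam, Tyrobp, Aif1 and Fcgr1 did not reach the low-count filter. Of the other 7, Cd14 (0.43 ± 0.10) and Csf1r (0.97 ± 0.32) were called higher and none lower, where 14.6% of all genes tested were called higher. The Csf1r call was lost without TNF-alpha a (0.91), TNF-alpha b (0.91) or control a (0.74). The summed level of the 12 was 38.6 to 40.0 CPM in the controls and 41.8 to 51.4 CPM with TNF-alpha. The mitochondrial genes with counts (of 13 coding for protein, 6 were at 0 in all 6 libraries) took 0.237% to 0.351% of the control counts and 0.42% of the counts in each TNF-alpha library. That shift was not tested for its part in any result. In whole tissue, fewer cells of a type and less RNA per cell cannot be told apart.

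After 12 h of TNF-alpha 2750 genes were higher (14.6% of those tested) and 2611 were lower (13.8%). Every count of list members called against the controls at 12 h is to be read beside these shares. The higher side reached further: 707 genes (3.75%) had risen at least 2-fold and 432 (2.29%) had fallen at least 2-fold, and at 8-fold the numbers were 138 and 15. The 12 called genes with the largest increases at a mean level of at least 1 CPM were Ccl5, Cxcl3, Ch25h, Madcam1, Pdgfb, Mmp9, Cybb, Il1rl1, Ccl20, Tmem132e, Cxcl2 and Mmp1a, which hold 4 chemokines and 2 collagen- or gelatin-cutting proteases. The 12 with the largest decreases were Apln, Gpr35, Ankrd37, Mgarp, Ppp1r3g, AI593442, Adra2c, Smtnl2, Cidec, Kcne3, Atp7b and Atg9b, with log2 fold changes from -4.08 to -2.41. In absolute CPM the largest increases were in Mmp3, Slc7a2, Fth1, Hmox1, Sqstm1, mt-Co1, Mmp13 and Actb. The largest losses in CPM were in collagens and 1 glycoprotein: Col2a1, Col3a1, Col1a2, Col11a2, Col1a1, Col11a1, Col12a1 and Clu. Single libraries bore on some of these. The log2 fold change of Cidec (-2.54) was -4.13 without TNF-alpha a, and the ratios of Cxcl3, Pdgfb and Mmp1a rested on 3 control counts each. The calls of Col2a1, Col1a2, Col11a2, Col1a1 and Col11a1 were each lost without TNF-alpha c and without control c, and for Col1a2 (-0.34) also without TNF-alpha a, at -0.34, -0.19 and -0.24.

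**Figure D1:**
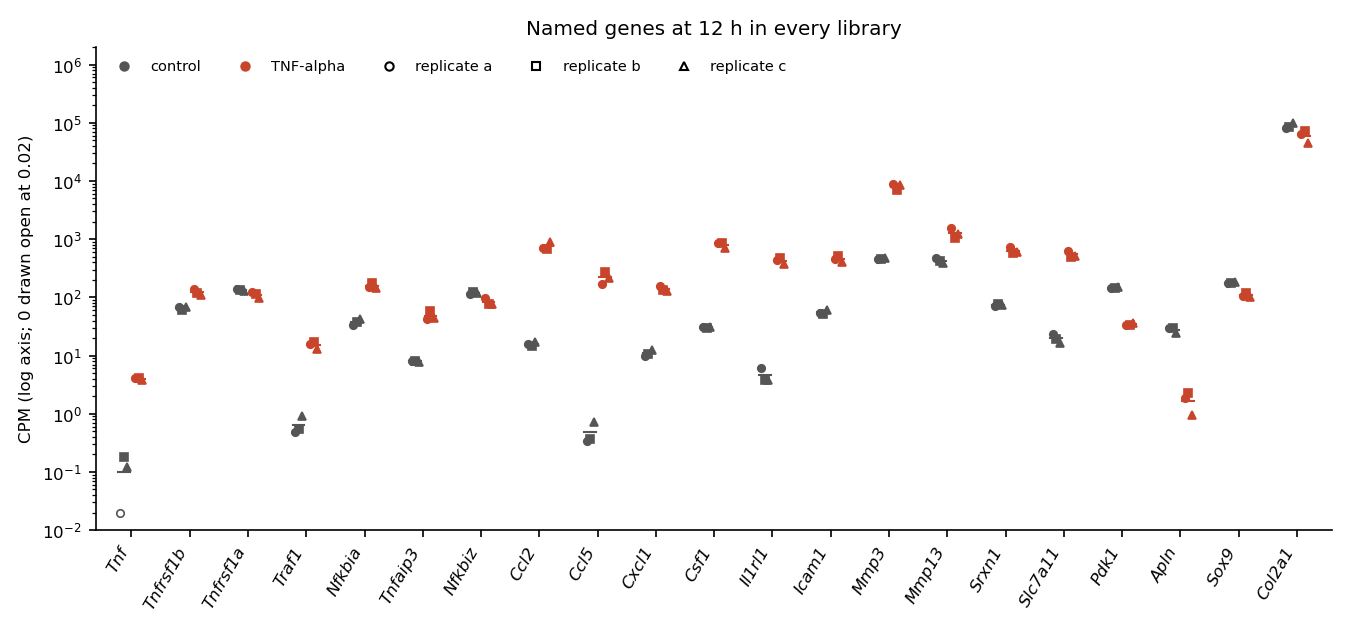
Level of 21 named genes in each of the 6 libraries at 12 h, in CPM on a log axis, with controls in grey and TNF-alpha in red; marker shapes stand for replicates a, b and c, short lines for the mean of a group. Ccl5 is at most 0.732 CPM in the controls and at least 172 CPM with TNF-alpha, and Apln at least 24.4 and at most 2.23 CPM. Tnfrsf1a and Nfkbiz lie below the controls with TNF-alpha without overlap, by a margin that is small on this axis.

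The cytokine's own gene was among those that rose. Tnf had 0, 0.181 and 0.122 CPM in the controls and 4.05, 4.05 and 3.75 CPM with TNF-alpha (log2 5.32 ± 0.47 SE, adjusted p = 3.45e-11). Every treated library was far above every control, where the gene was nearly silent, so the size of the ratio was uncertain: it was 4.67 without control a and 6.07 without control b. The treated means at the other times were 7.65 ± 0.419 CPM (SD, n = 3) at 4 h, 1.82 ± 0.311 at 24 h and 0.947 ± 0.267 at 72 h, against 3.95 ± 0.171 at 12 h. Of the receptors, Tnfrsf1b, which encodes TNFR2, went from 67.2, 61.2 and 67.7 CPM to 139, 118 and 109 CPM (log2 0.90 ± 0.081 SE, adjusted p = 5.42e-11), with no overlap between the groups (36.2% of all genes tested had none). Tnfrsf1a, the gene of TNFR1, had 138, 134 and 128 CPM in the controls and 124, 114 and 97.3 CPM with TNF-alpha (log2 -0.26 ± 0.065 SE, adjusted p = 0.00267). The groups of Tnfrsf1a did not overlap, but the call was lost without TNF-alpha c, the lowest library, at a log2 of -0.17.

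Among 18 adaptors and kinases of TNF signalling, 5 rose, 2 fell and 11 were not called (28.4% of all genes tested were called in either direction), and the median log2 fold change was 0.1 against -0.03 over all genes. Traf1, an adaptor that binds TNFR2 and is itself an NF-kappaB target, stood out from the rest of its list with 0.478, 0.543 and 0.914 CPM in the controls and 15.6, 17.3 and 13 CPM with TNF-alpha (log2 4.58 ± 0.21 SE, adjusted p = 1.45e-18). All 3 treated libraries lay far above the highest control. Ikbkg, the regulatory subunit of IKK, rose by log2 0.49 ± 0.051 SE, while the TNFR1 adaptor Tradd (-0.18 ± 0.077, adjusted p = 0.0843) and the kinase Ripk1 (0.13 ± 0.058, adjusted p = 0.103) were not called. Map3k14, the kinase that starts the noncanonical NF-kappaB route, went from 16.9, 20.5 and 19.9 CPM to 14.5, 16.1 and 13.4 CPM (log2 -0.38 ± 0.09 SE, adjusted p = 0.00149).

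Of the 5 NF-kappaB subunits 4 were higher. Relb had 24.9, 28.2 and 27.7 CPM in the controls and 66, 80.7 and 57.5 CPM with TNF-alpha, and Nfkb2, its partner in the noncanonical dimer, 36.2, 34 and 46.3 and 95.6, 112 and 79.9 CPM (log2 1.34 ± 0.093 and 1.30 ± 0.10 SE). Nfkb1 and Rela, the subunits of the canonical dimer, rose less, by 0.45 ± 0.057 and 0.54 ± 0.091, and Rel overlapped between the groups (0.16 ± 0.16, adjusted p = 0.48). In all 4 genes that were called the lowest TNF-alpha library lay above the highest control, and over all genes tested 17.4% were apart in that direction.

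Of 13 inhibitors and feedback genes of the pathway 7 were higher and 2 lower (median log2 0.42), and several had a larger log2 fold change than any subunit. Nfkbia (promoter above) went from 33.4, 38.4 and 42.6 CPM to 153, 179 and 142 CPM (log2 2.05 ± 0.094 SE, adjusted p = 8.57e-19), and Tnfaip3, the ubiquitin-editing enzyme A20, from 8.08, 7.96 and 7.68 to 41.7, 57.5 and 44.6 CPM (log2 2.59 ± 0.15 SE). Nfkbie, a further IkappaB, reached 27.3, 49.7 and 31.4 CPM from 4.21, 4.7 and 4.21 CPM, with replicate b the highest. Tnip3, an A20-binding protein, was close to silent in the controls at 0.43, 0.121 and 0.305 CPM and stood at 13.6, 11.1 and 10.2 CPM with TNF-alpha (log2 5.27 ± 0.25 SE). Nfkbiz and Bcl3, atypical nuclear IkappaB proteins that act as cofactors, went the other way: Nfkbiz from 116, 122 and 117 CPM to 97, 76 and 76.1 CPM (log2 -0.51 ± 0.092 SE, adjusted p = 5.13e-05) and Bcl3 from 22, 22 and 22.7 to 19.2, 18.7 and 12.1 CPM (log2 -0.42 ± 0.11 SE). The Bcl3 call was lost without TNF-alpha c, the lowest library, at -0.23. Of 10 further NF-kappaB targets tested, among them survival genes, 6 were higher and 2 lower. Higher were Birc3, a ubiquitin ligase of the TNFR1 complex, by 1.70 ± 0.11, Cflar, an inhibitor of caspase-8, by 0.46 ± 0.067, and Bcl2l1 by 0.37 ± 0.084. The 2 lower were the stress genes Gadd45b (63.8, 78.9 and 78 to 43.5, 44.5 and 38.9 CPM, -0.80 ± 0.10) and Ier3 (220, 252 and 238 to 198, 190 and 162 CPM, -0.37 ± 0.12), and the Ier3 call was lost without TNF-alpha c (-0.29), control b (-0.31) or control c (-0.35).

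Within the TNF superfamily 1 of 7 tested ligands was higher and 1 lower, close to the 28.4% of all genes called in either direction. Of 12 tested receptors 7 were higher and none lower, where 14.6% of all genes were called higher. The ligand Tnfsf9 fell from 5.07, 3.92 and 6.28 CPM to 1.62, 1.55 and 1.85 CPM (log2 -1.60 ± 0.20 SE, adjusted p = 8.67e-08). The death receptors Fas (10.7, 9.16 and 7.93 to 17.1, 24.8 and 21.6 CPM) and Tnfrsf10b (26.5, 23.8 and 19.3 to 37.2, 39.8 and 35.3 CPM) were higher in every treated library. Tnfrsf11b, the decoy receptor osteoprotegerin, was not called (0.03 ± 0.10, adjusted p = 0.854), and neither was its ligand Tnfsf11, also known as RANKL (0.40 ± 0.23, adjusted p = 0.213).

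Chemokines were the group with the largest median. Of 12 tested CXC chemokines 9 were higher and none lower (median log2 2.69), and of 11 tested CC and CX3C chemokines 7 were higher and none lower (median 2.51), where 14.6% of all genes were called higher. Ccl2, which attracts monocytes, went from 15.6, 14.5 and 16.9 CPM to 708, 683 and 887 CPM (log2 5.60 ± 0.21 SE, adjusted p = 5.2e-21). Ccl5, which attracts T cells and monocytes, had 0.335, 0.362 and 0.732 CPM in the controls and 172, 269 and 217 CPM with TNF-alpha (log2 8.87 ± 0.40 SE, adjusted p = 7.54e-19), the largest fold change among the genes at 1 CPM or more. Neither gene had a treated library anywhere near a control, but Ccl5 was chosen among genes without overlap. Ccl7 rose from 17.7, 19.3 and 19.1 to 119, 127 and 162 CPM, and Ccl20, which attracts cells bearing CCR6, from 0.239, 0.663 and 0.305 to 25.2, 37.6 and 42.5 CPM. Cx3cl1, a membrane-bound chemokine, was at 24, 19.9 and 17.1 CPM in the controls and 45.8, 126 and 46.2 CPM with TNF-alpha (log2 1.82 ± 0.23 SE), and without the high TNF-alpha b its log2 fold change was 1.19. Summed over the 17 CC and CX3C genes on the list, the level was 73.0, 70.8 and 71.0 CPM in the controls and 1101, 1300 and 1396 CPM with TNF-alpha. Per kilobase of gene model, the treated mean was 667 CPM for Ccl2 and 228 CPM for Ccl5.

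The neutrophil-attracting CXC chemokines rose as well. Cxcl1 stood at 9.7, 10.8 and 12.3 CPM in the controls and 154, 135 and 126 CPM with TNF-alpha (log2 3.67 ± 0.18 SE, adjusted p = 9.3e-18), and Cxcl2 at 0.478, 0.301 and 0.305 and 27.8, 25.8 and 31 CPM (log2 6.23 ± 0.31 SE). Cxcl3 had 3 counts over the controls and 26.8, 13.1 and 23.5 CPM with TNF-alpha, a ratio of 389 with a 95% counting interval from 133 to 1890, and its log2 fold change of 8.44 ± 0.44 SE became 9.38 without control c. Cxcl5 started higher, at 63.6, 63.4 and 76.6 CPM, and reached 217, 236 and 182 CPM (log2 1.64 ± 0.20 SE). The related chemokine genes lie in tandem, and reads that could be split between near-identical copies make their single values uncertain. Cxcl16, a membrane-bound chemokine for CXCR6, rose by 1.71 ± 0.15, and Cxcl12, which guides stem cells, was not called (0.62 ± 0.28, adjusted p = 0.0996).

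Growth factors for leukocytes were higher, as were 4 of 6 tested cytokines of the IL-6 family, with none lower. Csf1, which sustains macrophages and osteoclast precursors, went from 31, 30.1 and 31.5 CPM to 844, 871 and 698 CPM (log2 4.70 ± 0.13 SE, adjusted p = 4.91e-25), and all 4 tested members of its list were called higher. Lif went from 2.72, 3.44 and 3.35 to 43.6, 62.4 and 39 CPM (log2 3.94 ± 0.27 SE). Il6 itself was low, at 2.15, 1.93 and 1.71 CPM in the controls and 9.4, 7.55 and 4.93 CPM with TNF-alpha (log2 1.91 ± 0.28 SE, adjusted p = 1.59e-06), and the groups did not overlap. Tslp, a cytokine that acts on dendritic cells, had 3 counts over the controls and 1.73, 2.43 and 1.79 CPM with TNF-alpha, a ratio of 35.1 with a 95% counting interval from 11.7 to 173. Its log2 fold change of 5.01 ± 0.66 SE became 5.79 without control a. Il1a and Il1b had 7 and 2 counts over the 3 controls and 3 and 1 over the 3 TNF-alpha libraries, and they were not tested.

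The receptor with the largest increase was Il1rl1, the receptor of interleukin-33, at 6.21, 3.86 and 3.78 CPM in the controls and 436, 478 and 374 CPM with TNF-alpha (log2 6.51 ± 0.22 SE, adjusted p = 2.01e-22). Il33, its ligand, was at 2.1, 3.74 and 2.44 and 1.24, 2.02 and 1.34 CPM (log2 -0.85 ± 0.28 SE, adjusted p = 0.0217), a call that was lost without TNF-alpha a, TNF-alpha c or control b, with values between -1.06 and -0.56 over the 6 omissions. The interferon receptor chains Ifngr2, Ifnar1 and Ifnar2 rose by 0.98 ± 0.066, 0.49 ± 0.062 and 0.60 ± 0.083. Il6ra, the binding chain of the IL-6 receptor, went from 9.8, 10.1 and 10.1 CPM to 4.59, 8.03 and 5.43 CPM (log2 -0.75 ± 0.18 SE), while its signalling partner Il6st went from 355, 341 and 319 to 459, 543 and 466 CPM (log2 0.53 ± 0.07 SE). Socs3 and Stat3, which act in the same route, were not called (-0.01 ± 0.11 and -0.07 ± 0.05).

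Of 18 growth factors 11 were higher and 4 lower. Ereg, a ligand of the EGF receptor, rose from 17.9, 15.9 and 13 CPM to 186, 154 and 129 CPM (log2 3.32 ± 0.16 SE). Vegfc, the growth factor of lymph vessels, rose from 1.1, 1.27 and 0.975 to 9.23, 14.2 and 10.6 CPM (log2 3.34 ± 0.27 SE). Vegfa, the growth factor of blood vessels and a HIF target, moved the opposite way, from 252, 266 and 257 to 83.3, 89.2 and 67.9 CPM (log2 -1.69 ± 0.11 SE, adjusted p = 6.18e-15). Pdgfb had 3 counts over the controls and 3.89, 13.4 and 4.54 CPM with TNF-alpha, a ratio of 124 with a 95% counting interval from 41.9 to 602. Its log2 fold change of 6.87 ± 0.64 SE was 6.12 without TNF-alpha b and 7.80 without control b. Igf1 and Tgfb3, which favour matrix synthesis in cartilage, fell by log2 0.76 ± 0.12 and 0.61 ± 0.095, and Bmp2 rose from 54.3, 46.4 and 50.4 to 120, 141 and 99.4 CPM.

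Genes that are normally induced by interferon formed the next large group. Interferon-inducible GTPases attack the vacuoles of intracellular microbes, and 12 of 14 tested were higher with none lower (median log2 2.62). Of 24 antiviral effectors 21 were higher and none lower (median 2.10). Ifnb1, the interferon gene on the list, had 2 counts over the controls and 1 over the TNF-alpha libraries. Gbp2 (promoter above) went from 7.12, 4.94 and 4.08 CPM to 93.7, 174 and 92 CPM (log2 4.45 ± 0.27 SE, adjusted p = 1.81e-15), Irgm1 from 11.5, 9.22 and 7.68 to 47.9, 46.9 and 26.9 CPM, and Gbp5 from 1.29, 0.965 and 0.549 to 21.8, 31.2 and 17.9 CPM. The GTPase genes belong to tandem families, so reads could be split between near-identical copies. Ifitm3, which blocks the entry of viruses, was even across replicates, at 26.4, 26.2 and 26.5 CPM in the controls and 119, 127 and 108 CPM with TNF-alpha (log2 2.16 ± 0.18 SE).

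These genes varied between the treated replicates. Summed over the antiviral list the level was 280, 229 and 215 CPM in the controls and 890, 851 and 535 CPM with TNF-alpha, and over the GTPases 48.2, 31.4 and 29.8 against 293, 409 and 207 CPM. TNF-alpha c was lowest in both sums. Rsad2, the antiviral enzyme viperin, had 0.717, 0.904 and 0.975 CPM in the controls and 61.2, 9.85 and 8.79 CPM with TNF-alpha, and its log2 fold change of 4.96 ± 0.95 SE was 3.44 without TNF-alpha a. Cmpk2, its neighbour on the chromosome, had 32, 5.87 and 3.3 CPM with TNF-alpha against 0.956, 0.663 and 0.732 CPM, and its log2 fold change of 4.12 ± 0.83 SE was 2.51 without the same library. Isg15 (promoter above), a ubiquitin-like modifier, went from 2.58, 1.09 and 0.793 CPM to 12.1, 13.7 and 5.26 CPM (log2 2.72 ± 0.78 SE, adjusted p = 0.00735), and 3.46 without control a, the highest control. In all 3 genes every treated library lay above every control, as in 17.4% of all genes tested.

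Transcription factors of the same route moved in part. Irf1 went from 6.5, 7.41 and 8.66 CPM to 31.5, 56.9 and 35.1 CPM (log2 2.45 ± 0.18 SE, adjusted p = 2.05e-13), Irf5 from 0.861, 0.301 and 0.853 to 6.7, 7.69 and 5.38 CPM and Irf7 from 5.55, 3.38 and 2.56 to 23.9, 30.7 and 10.5 CPM, whereas Irf3 was not called (-0.10 ± 0.078, adjusted p = 0.372). Of 12 tested sensors of microbial products 10 were higher and 1 lower, and Ifnb1, the interferon gene on that list, was not tested. Among those that rose were Tlr2 from 71.9, 68.2 and 68.1 to 244, 297 and 230 CPM (log2 1.89 ± 0.093 SE) and Nod2 by 1.19 ± 0.17. The 1 lower was the sensor Nod1 (49, 49.3 and 53.1 to 49.1, 40.6 and 39.2 CPM, -0.23 ± 0.08), whose groups overlapped and whose call was lost without TNF-alpha b (-0.17), TNF-alpha c (-0.16), control b (-0.23) or control c (-0.17), and with library totals alone.

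Antigen presentation by MHC class I was higher in nearly all of its parts: 8 of 9 heavy and light chains and 10 of 11 genes of peptide processing were called higher. H2-K1, a classical heavy chain, rose from 256, 258 and 266 CPM to 517, 633 and 471 CPM (log2 1.06 ± 0.12 SE), and B2m, the light chain, from 508, 437 and 364 to 818, 801 and 794 CPM (log2 0.88 ± 0.13 SE). Psmb8, Psmb9 and Psmb10, the catalytic subunits of the immunoproteasome, rose by 2.45 ± 0.26, 1.75 ± 0.31 and 2.27 ± 0.20. Tapbpl, a peptide editor, was the 1 gene of the list called lower (-0.29 ± 0.091), a call lost without TNF-alpha a, TNF-alpha c or control b (-0.21, -0.27 and -0.23). Reads could be split between the similar H2 genes.

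Surface proteins that hold leukocytes were higher in 6 of 10 tested genes. Icam1 rose from 54.4, 52.3 and 61.3 CPM to 447, 504 and 407 CPM (log2 3.02 ± 0.10 SE, adjusted p = 2.01e-22), Vcam1 from 144, 136 and 140 to 277, 496 and 327 CPM (log2 1.39 ± 0.15 SE) and Cd44, the hyaluronan receptor, from 130, 112 and 109 to 345, 357 and 292 CPM. Madcam1, known as an adhesion protein of gut vessels, had 0.0956, 0 and 0.122 CPM in the controls and 19.7, 11.8 and 13.8 CPM with TNF-alpha. Sele, known from activated endothelium, went from 0.143, 0.422 and 0.061 to 3.13, 4.45 and 3.02 CPM (log2 4.06 ± 0.38 SE), and 4.97 without control b, and the part of endothelial cells in it was not tested. Of 8 endothelial markers Cdh5, Kdr, Tek, Tie1, Emcn and Cldn5 did not reach the low-count filter, Vwf was at 0.382, 0.362 and 0.427 and 0.54, 1.15 and 0.56 CPM (adjusted p = 0.128), and Erg, a factor that cartilage also expresses, fell from 187, 189 and 171 to 87.6, 92.3 and 86.6 CPM (log2 -1.04 ± 0.067 SE). The sum of the 8 was 172 to 190 CPM in the controls and 88.3 to 93.9 CPM with TNF-alpha, nearly all of it Erg. Groups did not overlap in any of these 5 adhesion genes, which for Madcam1 was a condition for choosing it. Over the whole list 6 of 10 tested genes had no overlap, against 36.2% of all genes tested.

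Genes of inflammatory mediators moved in part. Of 13 tested for prostaglandins 5 were higher and 2 lower, and of 11 for nitric oxide and superoxide 8 were higher and 1 lower. Ptges, the inducible prostaglandin E synthase, rose from 68.5, 69.9 and 67.4 CPM to 596, 557 and 529 CPM (log2 3.03 ± 0.10 SE, adjusted p = 2.87e-23), and Ptgs2, cyclooxygenase-2, from 120, 112 and 94.2 to 354, 246 and 258 CPM (log2 1.39 ± 0.15 SE). Ptgis, prostacyclin synthase, fell from 101, 105 and 113 to 64.8, 79.9 and 88.2 CPM (log2 -0.45 ± 0.082 SE). For nitric oxide, Nos2, the inducible synthase, rose from 24.2, 27.1 and 24.2 to 106, 123 and 76 CPM (log2 2.01 ± 0.21 SE). The arginine transporter Slc7a2 went from 718, 722 and 662 to 2383, 2550 and 2252 CPM, Ass1, which recycles arginine, from 29.4, 30.3 and 31.8 to 140, 131 and 146 CPM, and Gch1, which makes the cofactor of the synthase, from 14.1, 14.6 and 14.5 to 43.8, 45.7 and 45.3 CPM. Cybb, the catalytic subunit of the phagocyte superoxide oxidase, had 0.191, 0.422 and 0.427 CPM in the controls and 27.5, 41.6 and 33.6 CPM with TNF-alpha (log2 6.65 ± 0.56 SE), and Nox4, a related oxidase, fell by log2 0.90 ± 0.10. Ch25h, which makes 25-hydroxycholesterol, went from 0.382, 0.301 and 0.366 to 60.9, 92.7 and 73.6 CPM (log2 7.72 ± 0.34 SE, adjusted p = 3.85e-19).

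Of 12 genes of inflammasomes and cell death 10 were higher and none lower. Nlrp3, the sensor of an inflammasome, was at 0.239, 0.121 and 0.061 CPM in the controls and 9.77, 8.63 and 7.06 CPM with TNF-alpha (log2 5.79 ± 0.34 SE, 6.47 without control a). Mlkl, the executor of necroptosis, rose from 8.22, 7.48 and 8.72 to 34.5, 43.8 and 32.6 CPM, and Gsdmd, the pore protein of pyroptosis, from 2.29, 3.5 and 3.54 to 9.67, 16.6 and 10.3 CPM.

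**Figure D2:**
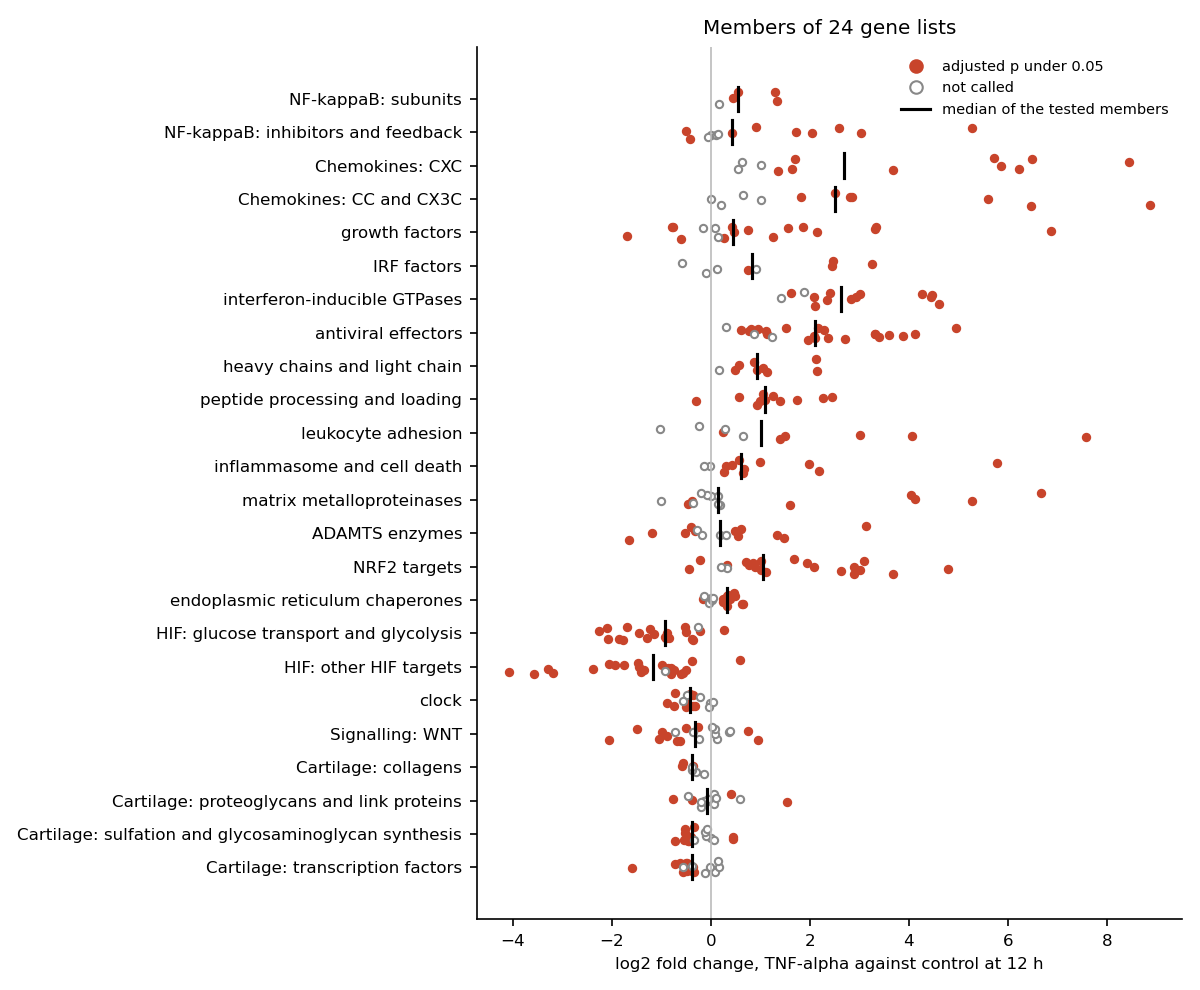
Log2 fold change of TNF-alpha over control at 12 h for the tested members of 24 gene lists, 1 row per list; filled points were called at an adjusted p under 0.05, open points were not, and black lines mark the medians. The medians are 2.69 and 2.51 for the chemokine lists, -0.92 for glycolysis, -1.17 for the other HIF targets, and between -0.38 and -0.07 for the 4 cartilage lists drawn (collagens, proteoglycans, sulfation and transcription factors). The glycoprotein list, not drawn, has a median of 0.0.

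Proteases moved unevenly. Among 15 matrix metalloproteinases 5 were higher, 2 lower and 8 not called. Mmp3, which cleaves proteoglycans and activates other proteases, went from 449, 451 and 468 CPM to 8692, 6907 and 8360 CPM (log2 4.13 ± 0.14 SE, adjusted p = 2.01e-22), a gain of 7530 CPM. Mmp13, the main collagenase of cartilage, rose from 478, 415 and 387 to 1547, 1064 and 1243 CPM (log2 1.59 ± 0.14 SE, adjusted p = 3.09e-11). Mmp9 and Mmp10 were almost silent before, at 0.143, 0.181 and 0.244 and 1.1, 1.02 and 1.22 CPM, and stood at 24, 18.4 and 15.3 and 54.1, 34.9 and 41.1 CPM with TNF-alpha. Summed over the list the level was 3531, 3395 and 3525 CPM in the controls and 13041, 10974 and 11900 CPM with TNF-alpha. Mmp1a, the nearer mouse relative of the human interstitial collagenase, had 3 counts over the controls, and its ratio was 80.7 with a 95% counting interval from 27.3 to 394. Its log2 fold change of 6.19 ± 0.42 SE was 5.55 without control a and 7.12 without control b, and reads could be split with its copy Mmp1b. Mmp2 and Mmp14, both well expressed, were not called (-0.00 ± 0.10 and 0.15 ± 0.10).

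Of 15 ADAMTS enzymes 6 were higher and 5 lower. Adamts5, an aggrecanase of mouse cartilage, rose from 8.13, 5.85 and 5.49 CPM to 14.9, 18.6 and 16.2 CPM (log2 1.33 ± 0.18 SE, adjusted p = 5.24e-07), and Adamts7, which cleaves COMP, from 7.46, 7.54 and 7.32 to 18.8, 25.6 and 17.5 CPM. Adamts4, the other aggrecanase, had 22.7, 20.1 and 23.9 and 28.4, 42.8 and 27.3 CPM (log2 0.55 ± 0.19 SE, adjusted p = 0.0276), and its call was lost without TNF-alpha b, control a or control b, with values from 0.34 to 0.67 over the omissions. Adamts17 fell by log2 1.19 ± 0.15. Timp1, an inhibitor of metalloproteinases, rose from 218, 224 and 270 to 791, 702 and 870 CPM (log2 1.73 ± 0.16 SE), while Timp2 and Timp3 were not called (0.10 ± 0.086 and 0.07 ± 0.13). The plasminogen activator Plau and its receptor Plaur rose by 2.53 ± 0.12 and 1.27 ± 0.13.

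Cartilage collagens were lower by a smaller margin than the inflammatory genes were higher. Col2a1 had 82489, 83652 and 100251 CPM in the controls and 63230, 71494 and 44471 CPM with TNF-alpha (log2 -0.57 ± 0.17 SE, adjusted p = 0.00893). The groups did not overlap, but the replicates were uneven: TNF-alpha c was lowest and control c highest. Without TNF-alpha c the log2 fold change was -0.40 (adjusted p = 0.099) and without control c -0.46 (adjusted p = 0.0664). Col11a1 (-0.35 ± 0.11) and Col11a2 (-0.59 ± 0.17), the chains of collagen XI, were also called lower, and those calls too were lost without either library (-0.28 and -0.28 for Col11a1, -0.44 and -0.46 for Col11a2). The collagen IX genes Col9a1, Col9a2 and Col9a3 overlapped between the groups and were not called.

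Aggrecan and its partners in the matrix were not called. Acan was at 7515, 7575 and 8192 CPM in the controls and 7268, 7771 and 6828 CPM with TNF-alpha (log2 -0.09 ± 0.13 SE, adjusted p = 0.662), Hapln1, the link protein, at 1272, 1206 and 1026 and 1174, 1015 and 1183 CPM (-0.06 ± 0.11), and Comp at 9324, 10075 and 10999 and 9944, 11051 and 10244 CPM (0.04 ± 0.12). Vcan, the versican of immature matrix, fell from 1671, 1602 and 1330 to 1020, 813 and 873 CPM (log2 -0.77 ± 0.10 SE, adjusted p = 2.37e-07). Matn3, a matrilin, rose from 238, 222 and 242 to 318, 374 and 381 CPM (log2 0.61 ± 0.16 SE), and Col10a1, the collagen of hypertrophic cartilage, from 194, 260 and 269 to 466, 635 and 752 CPM (log2 1.36 ± 0.35 SE, adjusted p = 0.00273). Hypertrophy and mineralization genes as a list did not lean that way: among 14 tested, 2 were higher, 4 lower and 8 not called (median log2 -0.17).

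Of 18 genes for sulfation and the building of glycosaminoglycan chains 10 fell and 2 rose, where 13.8% of all genes were called lower. Slc26a2, the sulfate transporter, went from 624, 604 and 566 CPM to 396, 398 and 438 CPM (log2 -0.54 ± 0.12 SE), Papss2, which activates sulfate, from 1440, 1396 and 1216 to 918, 952 and 961 CPM, and Chst3, a chondroitin sulfotransferase, from 85, 97.8 and 87.7 to 43, 63 and 57.6 CPM. Of 17 transcription factors of the cartilage lineage 10 were lower and none higher. Sox9, the master factor of chondrocytes, went from 176, 176 and 182 CPM to 106, 117 and 99.8 CPM (log2 -0.73 ± 0.10 SE, adjusted p = 3.65e-07), Sox6 from 209, 194 and 190 to 133, 126 and 128 CPM (log2 -0.62 ± 0.061 SE, adjusted p = 4.51e-10), and Sox5 was not called (-0.11 ± 0.065). Each treated library of Sox9 and Sox6 lay below each control, with replicates tighter than for the collagens.

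**Figure D3:**
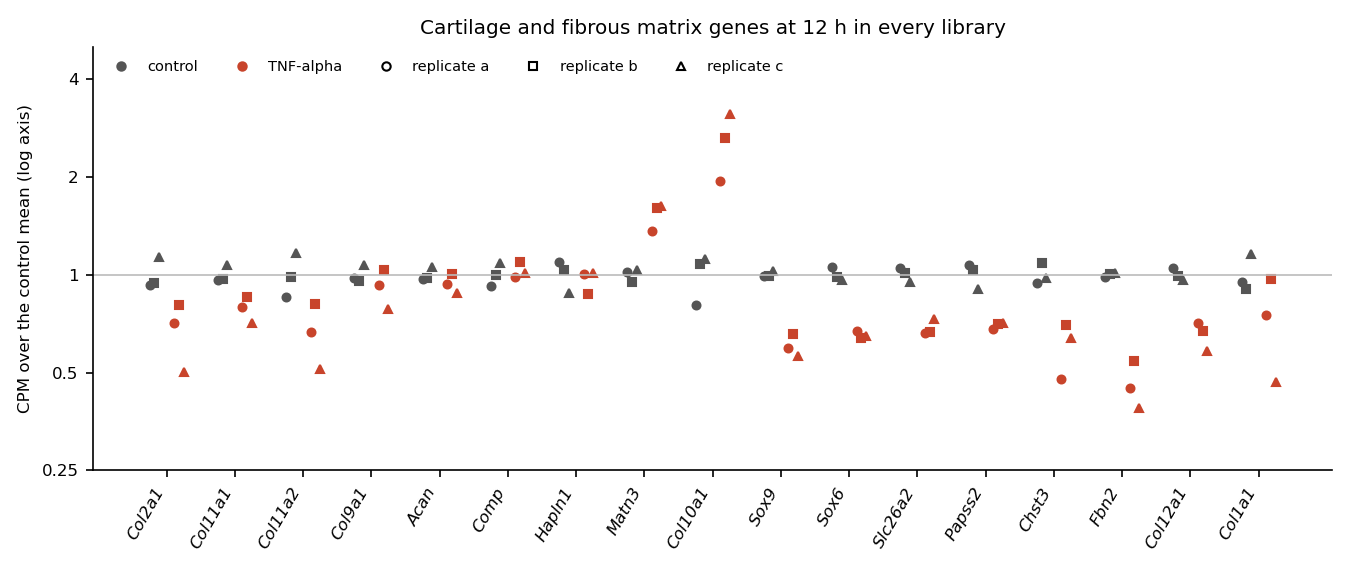
Level of 17 matrix and cartilage genes at 12 h in each library over the mean of the 3 controls, on a log axis, with controls in grey and TNF-alpha in red and marker shapes for replicates a, b and c. The Sox9, Sox6, Slc26a2 and Papss2 points of TNF-alpha lie together below the controls, those of Col2a1, Col11a2 and Col1a1 spread with replicate c lowest, and Acan, Comp and Hapln1 overlap.

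Of 20 genes of fibrous matrix 11 were lower and 4 higher. Col12a1 fell from 4314, 4100 and 3977 CPM to 2939, 2767 and 2407 CPM (log2 -0.61 ± 0.081 SE), Fbn2, a fibrillin, from 506, 517 and 519 to 230, 278 and 200 CPM (log2 -1.12 ± 0.10 SE), and Col3a1 from 8124, 7871 and 9794 to 6204, 6267 and 4225 CPM. Col1a1 had 6823, 6494 and 8325 CPM in the controls and 5417, 6987 and 3381 CPM with TNF-alpha, where TNF-alpha b lay inside the control range. Its call (log2 -0.46 ± 0.17 SE, adjusted p = 0.0455) was lost without TNF-alpha a, TNF-alpha c, control a or control c, with values from -0.69 to -0.22 over the omissions, and with DESeq2 and its size factors.

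Growth signals of cartilage were lower in part. Of 20 WNT genes 9 fell and 2 rose: Lgr5, a receptor that strengthens WNT signals, went from 26.2, 27.7 and 21.6 CPM to 5.67, 6.34 and 6.11 CPM (log2 -2.06 ± 0.17 SE), and Sfrp1, a WNT antagonist, from 62, 51.1 and 51.9 to 28.6, 17.8 and 12.3 CPM (log2 -1.49 ± 0.22 SE). Gdf10 and Gdf5, of the BMP family, fell by log2 1.40 ± 0.16 and 0.51 ± 0.11. Gli1, the readout gene of hedgehog signalling, went from 1.48, 1.57 and 2.32 to 0.486, 0.607 and 0.392 CPM. Most members of these lists were not called or were split in direction. Among 23 tested BMP and TGF-beta genes, 2 were higher, 6 lower and 15 not called (median log2 -0.11). Among 24 tested FGF, hedgehog and Notch genes, 6 were higher, 7 lower and 11 not called (median -0.02). Of 15 clock genes 9 were lower and none higher, among them Per3 (53.4, 55.8 and 56.1 to 34.2, 32.9 and 32.6 CPM) and Dbp (73.4, 79.5 and 96.1 to 49.4, 44.2 and 40.6 CPM), while Arntl, which encodes BMAL1, was not called (-0.01 ± 0.061). Of 20 genes of replication and mitosis 8 were lower and none higher, with a median of -0.33.

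Genes of glycolysis and other targets of HIF were lower. HIF is the transcription factor that answers to low oxygen and that is active in cartilage, a tissue without vessels. Of 22 genes of glucose transport and glycolysis 20 were lower and 1 higher (median log2 -0.92), and of 24 HIF targets outside glycolysis 22 were lower and 1 higher (median -1.17). Summed over the first list the level was 6050, 5907 and 6190 CPM in the controls and 3178, 3017 and 3111 CPM with TNF-alpha, and over the second 2870, 2860 and 2897 against 1408, 1369 and 1464 CPM. The replicates of each group lay close together in both sums. Pdk1, which keeps pyruvate out of the mitochondrion, fell from 144, 143 and 153 CPM to 33.6, 33.1 and 35.8 CPM (log2 -2.10 ± 0.082 SE, adjusted p = 7.82e-21). Slc16a3, the lactate exporter, fell from 406, 403 and 391 to 96, 88.4 and 65.7 CPM (log2 -2.26 ± 0.11 SE), and Ldha, lactate dehydrogenase, from 616, 585 and 665 to 269, 250 and 281 CPM (log2 -1.22 ± 0.078 SE). Slc2a1, the main glucose transporter, fell by log2 0.36 ± 0.092. Pfkfb4 was the 1 gene of the list called higher, at 0.26 ± 0.10, and that call was lost without TNF-alpha a, TNF-alpha c or control a, with values from 0.21 to 0.32, and with DESeq2.

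Outside glycolysis, Bnip3, a mitophagy receptor, fell from 38.6, 40.9 and 34.5 CPM to 6.97, 6.81 and 8.18 CPM (log2 -2.37 ± 0.12 SE, adjusted p = 5.4e-18). Apln, the vascular peptide apelin, had the largest fall of any gene at 1 CPM or more, from 29.3, 30.1 and 24.4 to 1.84, 2.23 and 0.952 CPM (log2 -4.08 ± 0.22 SE, adjusted p = 1.39e-16). Ankrd37 (promoter above) went from 7.08, 7.17 and 6.83 to 0.486, 0.472 and 0.784 CPM, Mgarp, a mitochondrial protein, from 15.5, 18.4 and 17.7 to 0.972, 1.62 and 2.69 CPM, and Ppp1r3g, a glycogen-targeting subunit, from 3.87, 4.28 and 3.66 to 0.648, 0.202 and 0.392 CPM. The highest treated library of each of these lay below the lowest control, as in 18.8% of all genes tested. For Apln, Ankrd37, Mgarp and Ppp1r3g that was a condition for choosing them. Within the pathway, the oxygen sensors Egln1 and Egln3 fell by log2 1.49 ± 0.078 and 2.08 ± 0.12. Hif1a, the oxygen-regulated subunit, went from 555, 541 and 475 to 637, 597 and 600 CPM (log2 0.22 ± 0.064 SE, adjusted p = 0.00761), a call lost without control c at 0.17.

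Genes under NRF2, the factor that answers to oxidants and electrophiles, were higher in 18 of 22 cases and lower in 2 (median log2 1.06). Summed over the list the level was 2441, 2423 and 2644 CPM in the controls and 8776, 6886 and 7209 CPM with TNF-alpha. Srxn1 and Txnrd1, which repair oxidised peroxiredoxins and reduce thioredoxin, had the smallest adjusted p of all genes named here. Srxn1 went from 71.9, 76.1 and 74.7 CPM to 723, 574 and 599 CPM (log2 3.09 ± 0.076 SE, adjusted p = 1.72e-26), and Txnrd1 from 107, 98.8 and 111 to 867, 741 and 767 CPM (log2 2.90 ± 0.071 SE). Slc7a11, which imports cystine for glutathione, rose from 23.4, 19 and 16.5 to 627, 502 and 516 CPM (log2 4.79 ± 0.13 SE), and Hmox1, heme oxygenase-1, from 153, 146 and 157 to 1472, 1167 and 1030 CPM (log2 3.01 ± 0.11 SE). The glutathione-making Gclm and Gclc rose by 2.63 ± 0.088 and 2.09 ± 0.085. Nfe2l2, the gene of NRF2 itself, went from 65.5, 62 and 54.2 to 123, 108 and 109 CPM, and its repressor Keap1 fell by log2 0.22 ± 0.07, a call lost without TNF-alpha a, TNF-alpha c or control b (-0.20, -0.17 and -0.15). Replicate a was the highest treated library in Srxn1, Txnrd1, Slc7a11, Hmox1 and Gclc.

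Other stress responses moved less. Of 17 chaperones of the endoplasmic reticulum 11 were higher and 1 lower (median log2 0.32), with Hspa5, or BiP, at 857, 835 and 846 CPM in the controls and 1372, 1247 and 1288 CPM with TNF-alpha (log2 0.62 ± 0.057 SE). Of 15 p53 targets and inhibitors of cyclin-dependent kinases 9 were higher and 1 lower, among them Mdm2 from 126, 125 and 120 to 224, 198 and 204 CPM and Gadd45a from 12.7, 11.6 and 13.5 to 30.5, 36.4 and 46.7 CPM, with Cdkn1b the 1 that fell (62.6, 66.6 and 59.9 to 38.7, 37.6 and 46 CPM). Sqstm1, a cargo receptor of autophagy, rose from 525, 514 and 557 to 1661, 1465 and 1504 CPM.

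TNF-alpha was next compared with IL-1beta at the same time. The cytokines were given at different doses (20 ng/mL and 1 ng/mL) and both share the 3 controls, so TNF-alpha libraries were set directly against IL-1beta libraries. Higher with TNF-alpha than with IL-1beta were 1108 genes (5.88%), and 887 (4.7%) were lower. Interferon-related genes were higher with TNF-alpha: 11 of 14 tested GTPases and 22 of 24 antiviral effectors passed the test in that direction and none in the other (medians of the log2 difference 2.27 and 2.42, against 0.01 over all genes). Cxcl10, which attracts T cells and is induced by interferon, had 1.72, 0.904 and 0.305 CPM in the controls, 79.6, 59.2 and 24.5 CPM with TNF-alpha and 2.97, 1.37 and 1.88 CPM with IL-1beta (log2 difference 4.76 ± 0.71 SE, adjusted p = 1.03e-05). Against the controls its log2 fold change of 5.72 ± 0.75 SE was 6.49 without control a. Ifit1 had 86.7, 68.7 and 34 CPM with TNF-alpha and 2.61, 5.62 and 2.83 CPM with IL-1beta against 6.45, 3.98 and 2.01 CPM, and Ifi47 had 7.88, 13.6 and 6.05, 0.36, 0.687 and 0.58 and 0.717, 0.663 and 0.427 CPM in the same order. Mx1, which blocks influenza viruses, had 7.45, 3.04 and 3.47 CPM with TNF-alpha and 0.27, 0 and 0.217 CPM with IL-1beta. For Ifit1, Ifi47 and Mx1 the IL-1beta libraries overlapped the controls. The difference for Mx1 was 4.94 ± 1.10, and 4.25 without IL-1beta b. For Rsad2 and Cmpk2 the differences were 5.33 ± 1.05 and 4.62 ± 0.93, and 3.81 and 3.02 without TNF-alpha a, while Cmpk2 was at 5.60 without IL-1beta b. MHC class I processing genes were higher with TNF-alpha in 10 of 11 cases (median 0.75).

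Among the genes lower with TNF-alpha than with IL-1beta were Il6, Csf3, part of the CXC chemokines and acute phase genes. Il6 had 9.4, 7.55 and 4.93 CPM with TNF-alpha and 124, 93.2 and 66.6 CPM with IL-1beta (log2 difference -3.69 ± 0.19 SE, adjusted p = 8.75e-16), and Csf3, the growth factor of neutrophils, 2.65, 2.97 and 1.12 and 34.4, 27.2 and 18.6 CPM (-3.58 ± 0.33). Cxcl1 had 154, 135 and 126 and 930, 686 and 494 CPM (-2.34 ± 0.16), and Cxcl5 217, 236 and 182 and 1182, 1317 and 788 CPM (-2.37 ± 0.20). All 4 genes were above the controls with either cytokine. That each IL-1beta library exceeded every TNF-alpha library was a condition for choosing these genes. The CXC chemokines as a list did not lean that way: 6 of 12 were higher with TNF-alpha and 3 lower (median of the log2 difference 0.65). Among the higher were Cxcl3 (26.8, 13.1 and 23.5 against 8.2, 6.99 and 7.39 CPM, 1.5 ± 0.21) and Cxcl2 (27.8, 25.8 and 31 against 24.6, 19.7 and 10.4 CPM, 0.64 ± 0.18), the latter not called without IL-1beta c (0.37) or TNF-alpha c (0.57). The CC and CX3C chemokines were higher with TNF-alpha in 4 of 11 cases and lower in none (median 0.48), with Ccl5 at 172, 269 and 217 CPM against 47.8, 39.2 and 26 CPM (2.55 ± 0.24). Of 9 tested genes of the acute phase and of iron handling 8 were lower with TNF-alpha (median -1.25).

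Opposite directions were seen in single genes. Steap4, a metalloreductase, stood at 333, 337 and 288 CPM in the controls, 234, 211 and 163 CPM with TNF-alpha and 1316, 1143 and 1256 CPM with IL-1beta, so that it was lower with TNF-alpha than in the controls (log2 -0.66 ± 0.12 SE, adjusted p = 4.64e-05), and its direct difference from IL-1beta was -2.61 ± 0.12. Draxin, an axon guidance protein, had 7.55, 6.51 and 6.22, 1.62, 1.89 and 2.69 and 15.9, 19.8 and 16.6 CPM in the same order (direct difference -3.08 ± 0.19). Nfkbiz, with 186, 175 and 168 CPM under IL-1beta, was lower under TNF-alpha than in either other group (-1.09 ± 0.093). Groups of libraries did not overlap for any of these 3 genes. For Steap4 and Draxin the gap between TNF-alpha and IL-1beta was a condition for choosing them.

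**Figure D4:**
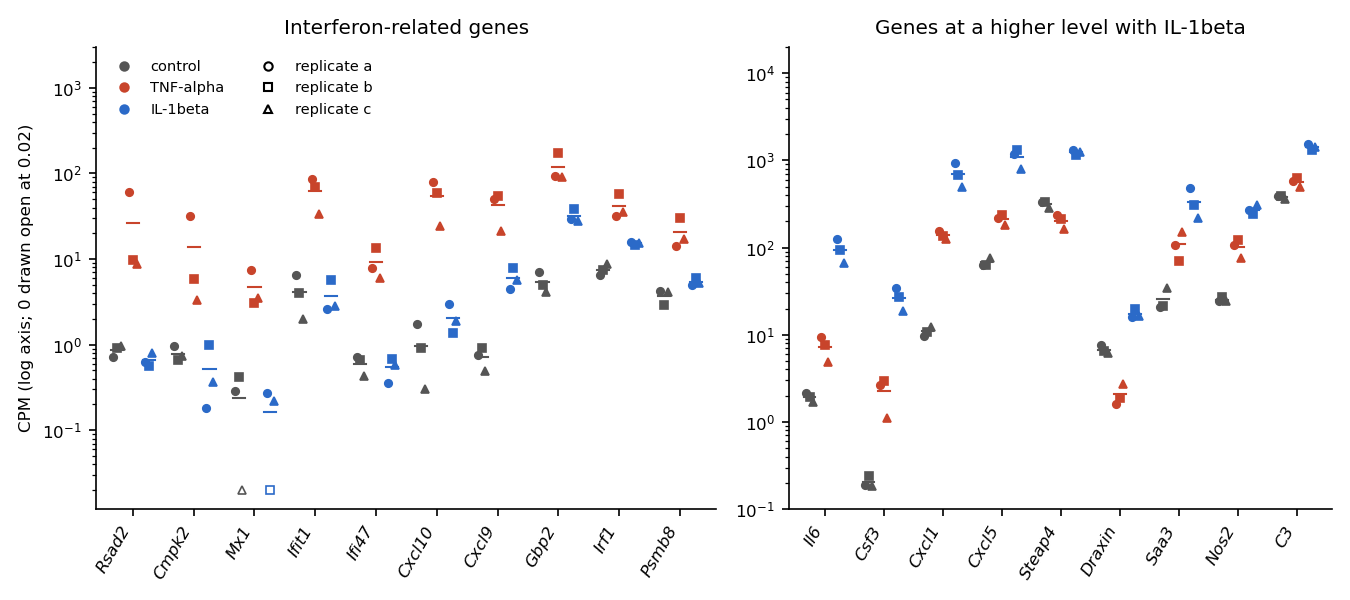
Level at 12 h in CPM on a log axis in each control (grey), TNF-alpha (red) and IL-1beta (blue) library, with lines for the means of the groups and open markers for values of 0. On the left, Rsad2, Cmpk2, Mx1, Ifit1 and Ifi47 are high with TNF-alpha alone, while on the right Il6, Csf3, Cxcl1 and Cxcl5 are highest with IL-1beta and Steap4 and Draxin lie below the controls with TNF-alpha.

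The effect at 12 h was set against the effects at 24 h and 72 h, each measured against the controls of its own time. The 12 h and 24 h effects differed in 69 genes (0.366%), 52 of them (0.276%) with a higher value at 12 h and 17 (0.0902%) with a lower one. Il6 was above the controls at 12 h (log2 1.91 ± 0.28) and at -0.84 ± 0.38 at 24 h, a difference of 2.74 ± 0.48 SE (adjusted p = 0.00222). Otor, a secreted protein of cartilage and cochlea, went from 1.70 ± 0.23 to -0.77 ± 0.24 (difference 2.47 ± 0.33), and Entpd1, the ATP-hydrolysing CD39, from 1.44 ± 0.30 to -0.58 ± 0.26 (difference 2.02 ± 0.40), which was not called without control a of 24 h (1.79). Il1rl1 stayed above the controls at both times but by less at 24 h (difference 1.75 ± 0.31). In the opposite sense, Ltbp2, which binds fibrillin, gained from 0.81 ± 0.11 to 1.69 ± 0.11 (difference -0.87 ± 0.15), and Pfkfb3, which drives glycolysis, was lowered less at 24 h, from -2.07 ± 0.10 to -1.39 ± 0.10 (difference -0.68 ± 0.14). The Pfkfb3 difference was not called without TNF-alpha c of 12 h (-0.60), control b of 12 h (-0.62), TNF-alpha c of 24 h (-0.63), control a of 24 h (-0.62) or control b of 24 h (-0.59). The number of genes itself rested on single libraries: it was 160 without TNF-alpha b and 110 without control a of 12 h, and 37 without TNF-alpha c and 40 without control a of 24 h.

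By 72 h the effect differed from that at 12 h in 1611 genes (8.54%), 924 (4.9%) higher and 687 (3.64%) lower at 12 h. That split turned with the scaling: with library totals alone 607 were higher and 1098 lower. Mfap5, a microfibril protein, was above the controls at 12 h (log2 1.15 ± 0.29) and below them at 72 h (-3.18 ± 0.34), a difference of 4.33 ± 0.44 SE. Saa3, a serum amyloid A of the acute phase, had a larger effect at 72 h, from 2.11 ± 0.35 to 5.28 ± 0.38 (difference -3.17 ± 0.49), and its treated mean went from 110 ± 40.9 to 1234 ± 549 CPM (SD, n = 3). The effect on Nos2 also grew, from 2.01 ± 0.21 to 4.78 ± 0.28 (difference -2.77 ± 0.36), but there the treated mean was 102 ± 23.9 CPM at 12 h and 78.5 ± 9.22 at 72 h while the control mean went from 25.2 ± 1.69 to 2.87 ± 0.419 CPM. Col2a1 went from -0.57 ± 0.17 to -1.35 ± 0.17, a difference of 0.78 ± 0.24 SE (adjusted p = 0.0322). It was not called without TNF-alpha a (0.76), TNF-alpha b (0.67), control a (0.76) or control b (0.77) of 12 h, nor without TNF-alpha a (0.68), TNF-alpha b (0.79) or control c (0.68) of 72 h. By list, 5 of 7 cartilage collagens and 10 of 20 fibrous matrix genes had a higher log2 fold change at 12 h than at 72 h, with none and 2 lower. Their medians were less negative at 12 h: -0.37 against -1.16 at 72 h for the collagens, and -0.3 against -0.83 for fibrous matrix. Of the metalloproteinases 2 had a higher log2 fold change at 12 h and 6 a lower one.

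**Figure D5:**
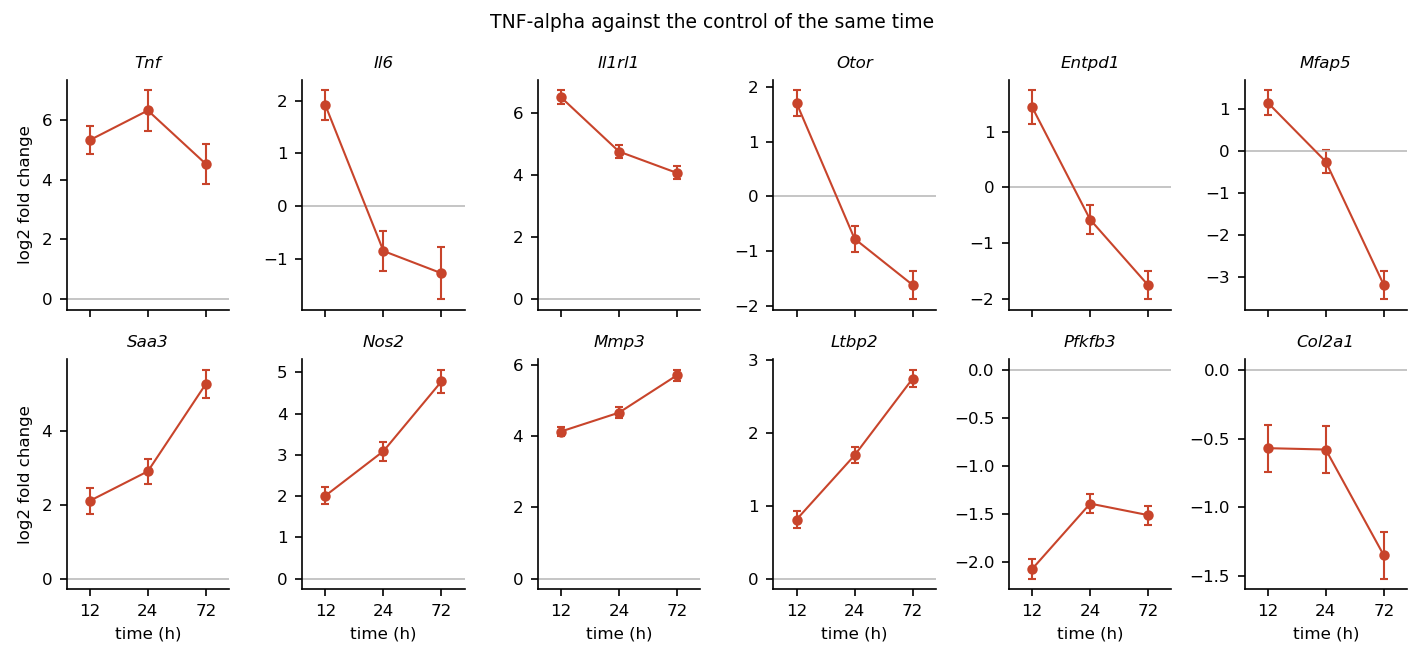
Log2 fold change of TNF-alpha over the control of the same time at 12, 24 and 72 h for 12 genes, with bars of 1 SE; the vertical scale differs between panels. Il6, Otor, Entpd1 and Mfap5 start above 0 and end below it, Saa3, Nos2, Mmp3 and Ltbp2 climb, and Col2a1 is lowest at 72 h.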

How the data were processed

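The mRNA of engineered mouse cartilage was counted in 39 libraries, of which those at 12 h with TNF-alpha or without treatment are the subject here. The authors deposited raw counts per gene as whole numbers. The build mm10 and the tools STAR, featureCounts, cutadapt and Trimmomatic, all without versions, are given per the submitters' processing notes. Whether strand was used in counting is not given in the sources used here, so reads of antisense or overlapping genes cannot be told apart, nor reads of near-identical copies. Of the deposited table, 52459 lines carried a gene name and were used. A further 2199 lines had no name and no value in any library column, so 0 counts were lost by leaving them out. The promoters were matched by symbol in the RefSeq table.

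Counts were fitted with edgeR 4.0.16 (R 4.3.3, limma 3.58.1): TMM scaling, the filterByExpr low-count filter by group, 1 coefficient per group, and the quasi-likelihood F test with Benjamini-Hochberg adjustment over all 18857 genes tested. The fit held 38 libraries, so that all groups shared 1 estimate of the spread. Control b of 0 h was left out because it held only 220180 counts. The SE of a log2 fold change is its size over the square root of F. Levels are CPM, counts scaled to library size with the TMM factors, and a ratio that rests on 3 control counts has an exact 95% interval for counting error only. The fit was tested on simulated data. The 6 libraries held 15380655 to 21292715 counts. Replicates of each 12 h group differed by more than sampling noise (chi-square per degree of freedom of at least 3.39), so none was a copy of another. Each was counted as 1 sample, but this does not show that they came from separate cultures.

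The gene lists and the members described were chosen with earlier results of these data known. Named were the 12 called genes of largest log2 fold change in each direction (mean of at least 1 CPM, no overlap of libraries, no provisional symbols), the 8 of largest difference in CPM, and from each list up to 6 members of smallest p with its defining members and contrasting ones. For TNF-alpha against IL-1beta and between times, the 6 genes of largest difference in each direction were eligible, if also called at 12 h. Against IL-1beta, no overlap of the TNF-alpha and IL-1beta libraries was also required. Each comparison was repeated with DESeq2 1.42.0, with edgeR scaled by its size factors or by totals only, without the filter, with replicate letters as a block, on the compared libraries only, on all 39 libraries, and with each library left out in turn. Tables and figures were made with Python 3.11.15, NumPy 2.4.6, pandas 2.3.3, SciPy 1.17.1 and matplotlib 3.10.9.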

Additional observations from a re-analysis of the deposited data

Results flagged for a closer look

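The effect of TNF-alpha at 12 h differed from its effect at 24 h in 69 genes and from its effect at 72 h in 1611, by the test of the difference between the times. Values are log2 differences, 12 h minus the later time, with the effect at 12 h beside those not given before.

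Against 24 h the largest higher values among genes called at 12 h were in Esm1, an endothelial proteoglycan (3.27, from 2.72 ± 0.42 SE at 12 h), Il6 (2.74), AC159633.2 (2.50, from 4.58 ± 0.37), Otor (2.47), Entpd1 (2.02) and Il1rl1 (1.75). At 12 h AC159633.2 was at 5.22 without control c, and its difference lay between 2.0 and 3.14 over the omissions, not called without control a (2.0) or b (2.56) of 12 h, TNF-alpha b (2.47), control a (2.36) or control b (2.43) of 24 h, and 3.14 without control c of 12 h. The Entpd1 difference was not called without control a of 24 h (1.79). The lower values were in Slc25a18, a mitochondrial glutamate carrier (-1.51, from 0.51 ± 0.18), Ltbp2 (-0.87), Ccbe1 (-0.79, from 1.53 ± 0.13), Slc4a3, an anion exchanger (-0.72, from -0.70 ± 0.10), Pfkfb3 (-0.68) and Lpin1 (-0.62, from -0.22 ± 0.077). The Ccbe1 difference was not called without TNF-alpha c (-0.69), control a (-0.67) or control c (-0.81) of 12 h, nor without TNF-alpha c (-0.64), control b (-0.78) or control c (-0.72) of 24 h. For Pfkfb3 this held without TNF-alpha c (-0.60) or control b (-0.62) of 12 h and without TNF-alpha c (-0.63), control a (-0.62) or control b (-0.59) of 24 h. The 12 h call of Slc25a18 was lost without TNF-alpha a (0.35) or control a (0.41). The 12 h call of Lpin1 was lost on leaving out each of the 6 libraries except control b, with values from -0.23 to -0.15 over the omissions, and with DESeq2 or library totals alone.

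Against 72 h the largest higher values were in Mfap5 (4.33), Calca, the gene of calcitonin and CGRP (4.11, from 1.60 ± 0.53), Cmpk2 (4.05), Otor (3.32), Entpd1 (3.20) and Il6 (3.16). The lower values were in Mmp1b (-4.54, from 4.81 ± 0.37), Saa3 (-3.17), Nos2 (-2.77), Arl14epl (-2.74, from -1.38 ± 0.34), Slc25a18 (-2.67) and Slc39a4, a zinc importer (-2.46, from 0.89 ± 0.19). The 12 h call of Calca was lost without TNF-alpha c (1.33), control a (1.23) or control b (1.60). At 12 h Mmp1b was at 5.64 without control a, and its difference was not called without control a (-3.71) or c (-4.47) of 12 h, nor without control a (-4.55), b (-4.54) or c (-4.53) of 72 h. That of Cmpk2 was not called without TNF-alpha a (2.46), control b (3.98) or control c (4.04) of 12 h, nor without TNF-alpha a (3.78) or control b (3.90) of 72 h. Arl14epl was at -3.79 without control b of 72 h.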

How the results depend on the processing

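Of the 189 named genes called at 12 h none changed sign under the 13 alternatives, and 52 lost the call under at least 1 of them, 51 with all 39 mRNA libraries. DESeq2 lost Col1a1, Lpin1 and Pfkfb4, its size factors in edgeR lost Col1a1, and library totals alone lost Lpin1 and Nod1. Without the low-count filter Keap1, Lpin1, Nod1, Pfkfb4 and Tapbpl lost the call and Col9a2, Col9a3, Cxcl12 and Tnfsf11 gained one. Fitting only the 6 libraries lost 13, and 19 lost the call without 1 library or another. Genes called at 12 h numbered 5361 and became 2331 with all 39 mRNA libraries, where the near-empty control b of 0 h enters the fit. Against IL-1beta 1995 became 908 with only the libraries compared and 639 with all 39, and against the 72 h effect 1611 became 291 with all 39. The 69 genes that differed from 24 h became 197 with DESeq2, 298 with no low-count filter, 23 with only the libraries compared and 5 with all 39. Leaving out 1 library gave 4563 to 5002 genes against control, 1486 to 1933 against IL-1beta, 37 to 160 against 24 h and 1326 to 1736 against 72 h. With no low-count filter 66.0% of the calls against IL-1beta were higher, against 55.5%. The causes were not tested.

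No pairing by replicate letter was detected between the control and TNF-alpha libraries of 12 h: the deviations of same-letter libraries from their group means correlated at 0.02, -0.027 and 0.018. Such low values cannot show whether the letters mark shared cultures or batches. With the letter as a block, 5293 genes were called at 12 h, 1943 against IL-1beta, 68 against 24 h and 1562 against 72 h, and Col1a1 and Pfkfb4 lost their calls. Depth limits the ratios of genes nearly silent in the controls, such as Cxcl3, Pdgfb, Mmp1a and Tslp with 3 control counts each.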
